A study of Mus musculus with 17 samples.

Results

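The Skint genes encode a rodent family of butyrophilin-like membrane proteins made by keratinocytes and thymic epithelium. In mouse epidermis, the 10 genes Skint1 to Skint10 on chromosome 4 held 18 of the 2948 peaks that chromatin immunoprecipitation followed by sequencing (ChIP-seq) gave over 4 peak lists. A peak belonged to a Skint gene when it lay inside that gene, or outside all genes with that gene as the nearest protein-coding gene on the mouse genome build GRCm38. All 18 were peaks of acetylated lysine 27 of histone H3 (H3K27ac), which marks promoters and enhancers in use, in control epidermis. The H3K27ac list of Utx-deleted epidermis and both lists of the UTX antibody held 0 Skint peaks.

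Skint proteins carry immunoglobulin-like domains and several membrane-spanning segments. Skint1 is known for its role in the thymus, where mouse strains with a truncated Skint1 fail to mature the dendritic epidermal T cells, the gamma-delta T cells that patrol mouse epidermis. Skint2, also called B7S3, has been described as an inhibitor of T cell responses, and in mice Skint3 and Skint9 have been linked to signalling from wound-edge keratinocytes to these T cells. The roles of the other members are less well defined, and no working human counterpart of Skint1 is known.

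The study deleted Kdm6a, the X-linked gene of the H3K27 demethylase UTX, with a Cre recombinase driven by the keratin gene promoter Krt14, which acts in basal keratinocytes and other keratin-14 tissues. Control female mice were Cre-; Utx fl/fl and Utx-deleted female mice were Cre+; Utx fl/fl, so both genotypes carried the floxed alleles, and ages are not given in the sources used here. Crosslinked suspensions of whole epidermis were used, which also hold T cells, Langerhans cells and melanocytes that Krt14-Cre is not designed to reach. The labels hold 2 control H3K27ac libraries and 3 libraries each for Utx-deleted H3K27ac, control UTX and Utx-deleted UTX, besides 3 inputs per genotype that were not analysed here. The protocol gives 3 samples for every group, so it is not known whether the merged control H3K27ac list rests on 2 libraries or on a further one.

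Each list was called on the merged libraries of its group, so replicate errors cannot be given. The Skint genes were chosen by the peaks assigned to them in the control H3K27ac list. Counts, widths and positions are therefore given as a description, with no test. The lists held 2140 control H3K27ac, 48 Utx-deleted H3K27ac, 547 control UTX and 213 Utx-deleted UTX peaks, with no height or q-value, and read depth is unknown from them. As a check of the tissue, 4 of 13 keratinocyte markers had a control H3K27ac peak (Krt10, Dsp, Jup and Col17a1), while Krt5, Krt14 and Trp63 had none; over all protein-coding genes the share was 5.97%. Of 16 T cell markers, 2 had one: Rora, and Cd69 with its nearest peak 29787 bp away, whereas Cd3d, Cd3e, Cd3g and Ptprc had none. The 6 Langerhans cell, 7 melanocyte and 6 fibroblast markers had none, which at that share says nothing about these cells. Which epidermal cells carried the Skint peaks cannot be told apart in these lists.

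The sequences that the peaks touch are shown first. RefSeq promoter entries, 250 bases before and 50 from the annotated transcription start on GRCm38, were matched for all 10 members. Control H3K27ac peaks reached into 3 of these windows: those of Skint1 (137 of 300 bases), of the upstream start of Skint4 (87 bases) and of Skint8 (48 bases). These are printed 5′ to 3′ on the strand of the gene, all on the plus strand, with the bases inside a peak in capitals.
Skint1, chr4:112006019-112006318: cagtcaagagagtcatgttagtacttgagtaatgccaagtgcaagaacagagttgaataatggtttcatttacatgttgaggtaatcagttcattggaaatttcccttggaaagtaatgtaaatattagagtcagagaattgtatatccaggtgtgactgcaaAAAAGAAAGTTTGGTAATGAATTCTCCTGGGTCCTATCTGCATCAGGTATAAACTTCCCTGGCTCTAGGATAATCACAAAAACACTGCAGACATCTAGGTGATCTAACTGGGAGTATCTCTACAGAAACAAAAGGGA
Skint4, upstream start, chr4:112071766-112072065: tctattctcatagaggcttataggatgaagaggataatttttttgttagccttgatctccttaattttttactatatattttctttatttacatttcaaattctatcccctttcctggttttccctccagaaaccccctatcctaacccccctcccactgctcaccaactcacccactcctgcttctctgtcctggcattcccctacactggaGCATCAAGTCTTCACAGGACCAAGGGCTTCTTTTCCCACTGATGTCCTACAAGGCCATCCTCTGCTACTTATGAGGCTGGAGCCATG
Skint8, chr4:111919305-111919604: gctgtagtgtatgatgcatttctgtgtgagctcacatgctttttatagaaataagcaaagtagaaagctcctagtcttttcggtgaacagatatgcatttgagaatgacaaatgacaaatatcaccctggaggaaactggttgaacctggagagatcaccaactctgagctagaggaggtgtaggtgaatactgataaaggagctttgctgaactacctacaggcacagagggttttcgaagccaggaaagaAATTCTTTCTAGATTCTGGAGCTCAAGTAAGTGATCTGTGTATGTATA

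In control epidermis 7 of the 10 Skint genes (70.0%) had an H3K27ac peak, and 5.97% of the 21887 protein-coding genes did. The genes were selected on these peaks, so nothing is read from this difference. Skint4 had 6 peaks, Skint7 4, Skint1 3, Skint6 2, and Skint2, Skint3 and Skint8 1 each. Skint5, Skint9 and Skint10 had 0, and their transcription starts lay 164199, 179910 and 160621 bp from the nearest control H3K27ac peak. All 6 members on the plus strand had a peak, and 1 of the 4 on the minus strand, Skint6. Skint11, which completes the family next to Skint5 and was not among the 10, had 4 peaks, so that 8 of the 11 family members had 22 peaks together. Of the 18 peaks of the members, 15 lay in or touched a Skint gene, and 3 lay outside, at most 9308 bp from the gene.

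The nearest control H3K27ac peaks outside the Skint family lay at least 1.83 Mb from its genes. The next control H3K27ac peak lay 3.14 Mb before the start of Skint8, assigned to Zfyve9 (chr4:108783097-108783365), and the next after Skint11 lay 1.83 Mb beyond its end, assigned to Lrrc41 (chr4:116075117-116075353). Between them lay 7.29 Mb with 58 protein-coding genes. All 22 control H3K27ac peaks there were assigned to the Skint family, and 0 of the 47 other genes had 1. That stretch ends at the nearest peaks outside the family, so the 0 follows from its bounds and is not a result about these genes. Over all protein-coding genes, 5.97% had a control H3K27ac peak. The 47 include the immediate neighbours, the sodium-glucose transporter gene Slc5a9 and Trabd2b, which encodes an inhibitor of Wnt signalling. From the start of Skint8 to the end of Skint5, 2.08 Mb, there were 8.65 peaks per Mb, against 0.830 on the rest of chromosome 4 and 0.786 over all chromosomes, measured to the last annotated gene. Of 1252 windows of the same length tiled over the genome, 16 held 18 peaks or more, the fullest held 33 and the median window held 0. The Skint span was fitted to genes selected on these peaks, and the windows were not fitted to any genes. Nothing is therefore read from the density or from this comparison.

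**Figure D1:**
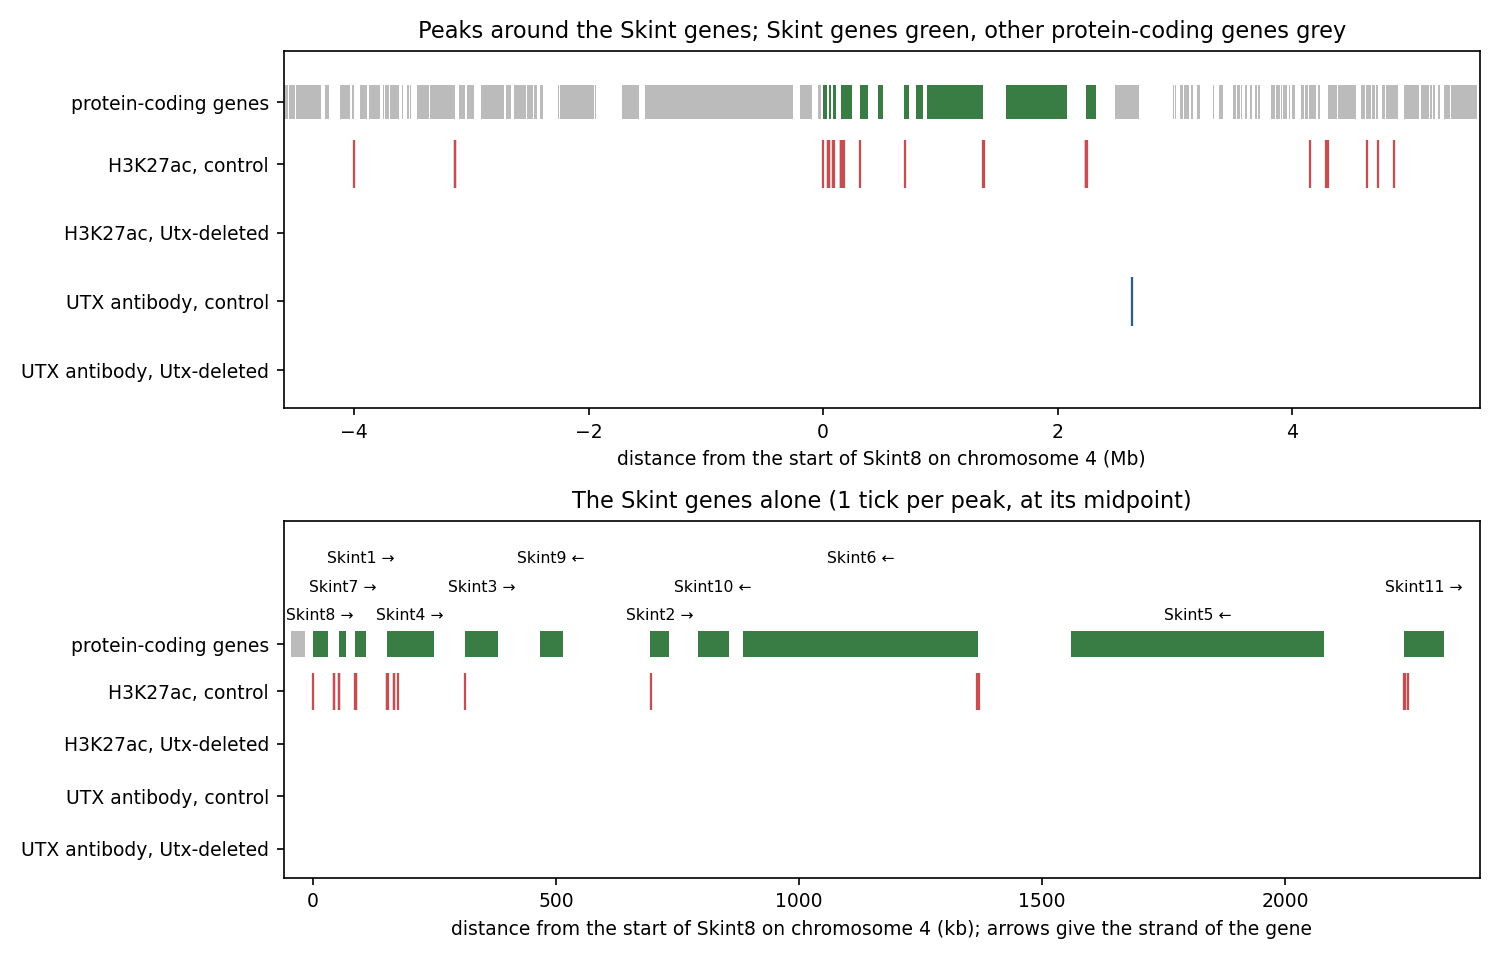
Positions of peaks in the 4 lists around the Skint genes, as distance from the start of Skint8, in Mb (top) and, for the family alone, in kb (bottom). Boxes are protein-coding genes and each tick is 1 peak. All 22 control H3K27ac peaks in the middle belong to Skint genes, the other rows are empty there, and 1 control UTX peak lies beyond Skint11.

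Skint1, the member needed for dendritic epidermal T cells, had the widest peaks. The gene lies at chr4:112006269-112029538 on the plus strand, and its peaks were 912, 926 and 1292 bp wide. By width they ranked 17, 14 and 2 among the 2140 control H3K27ac peaks. The first spanned the transcription start, from 87 bp before it to 824 bp after it, the second ran from 917 to 1842 bp and the third from 2244 to 3535 bp into the gene. Together they covered 3130 of 3623 bp (86.4%), and 37.3% of all sequence covered by Skint peaks. When peaks within 1 kb of each other were joined into stretches, Skint1 ranked 4 of 1720 by covered length and 11 by the length of the stretch. With peaks joined up to 3000 bp apart it ranked 7 of 1580 and 46, and over wider gaps still 11 of 1394 and 178, so its place depended on the joining distance. At 1 kb, stretches assigned to the keratin genes Krt42 (4427 bp) and Krt78 (3240 bp) covered more. By covered length per gene Skint1 ranked 14 of all protein-coding genes, though 176 genes had 3 or more peaks.

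Skint4 (chr4:112072016-112168076) had the most peaks. At its upstream start 3 peaks of 472, 220 and 669 bp ran from 37 bp before the start to 1774 bp after it. RefSeq gives Skint4 a further start at position 112081470, and no peak lay within 1 kb of it. The nearest were peaks of 285 and 201 bp, beginning 4185 and 4597 bp downstream, and the last peak, of 210 bp, began 13979 bp downstream. The 6 peaks covered 2057 bp, and Skint4 ranked 32 by covered length.

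Skint7 (chr4:111972924-111988260) had peaks of 503 and 423 bp that began 70 and 822 bp after its start. Its other peaks, of 280 and 261 bp, lay between Skint8 and Skint7, ending 9311 and 8911 bp before the start of Skint7. They were the only Skint peaks between genes apart from a peak before Skint6. At Skint8, Skint3 and Skint2, by contrast, the single peak lay at the start of the gene. It began 2 bp after the start of Skint8 (326 bp wide), 73 bp after that of Skint3 (509 bp) and 155 bp after that of Skint2 (346 bp).

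Skint6 (chr4:112804616-113286973, minus strand) is, at 482358 bp, second in length to Skint5 in the family. It had no peak within 1 kb of its start. A peak of 306 bp lay 1364 to 1669 bp into the gene and a peak of 246 bp lay 2300 to 2545 bp upstream, so both fell within 3 kb of the start and the rest of the gene had none. Skint5 (chr4:113477891-113999503), 521613 bp long and also on the minus strand, had no peak over its whole length.

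**Figure D2:**
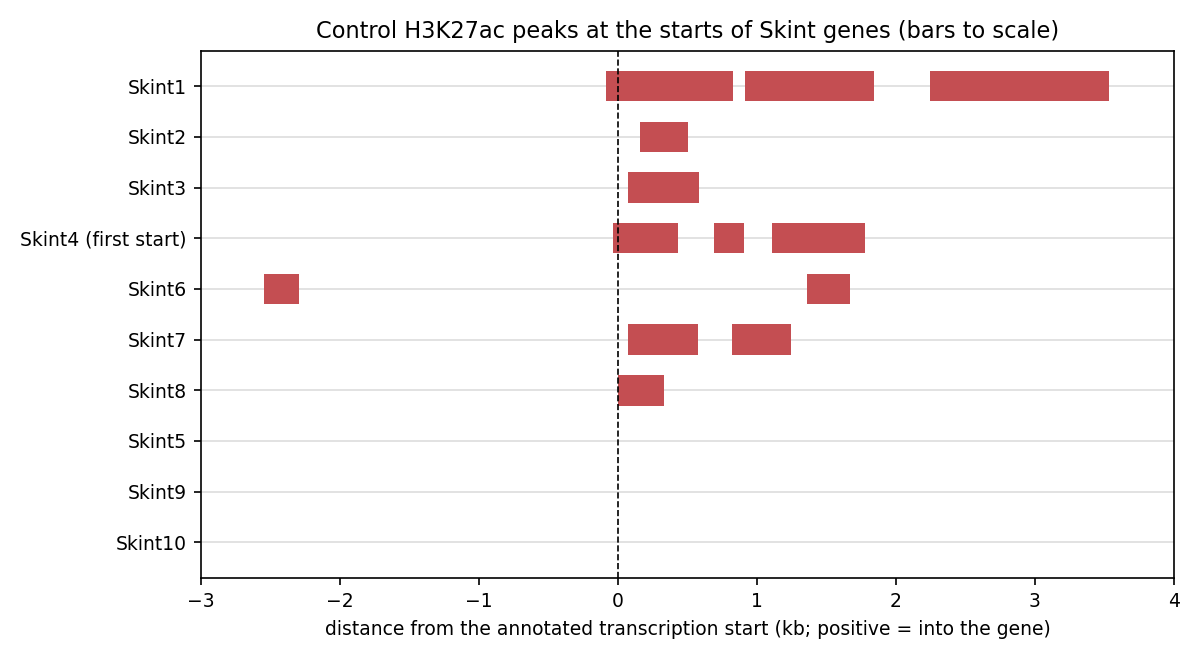
Control H3K27ac peaks within 3 kb before and 4 kb after the annotated transcription start of each Skint gene, drawn to scale along the direction of transcription. At 6 genes the nearest peak begins between 87 bp before and 155 bp after the start, at Skint6 the peaks stand off on both sides, and Skint5, Skint9 and Skint10 have none. The 2 distant Skint7 peaks and the 3 of Skint4 lie outside the plotted range.

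Of the 7 Skint genes with a peak, 6 had a peak within 1 kb of a transcription start. The like share of other genes was not counted. Of the 18 Skint peaks, 9 (Wilson 95% interval 29.0 to 71.0%) lay within 1 kb of a start, measured from the nearest edge. Of the 2121 other placed peaks, 748 did (35.3%, 33.3 to 37.3). The Skint interval includes 35.3%, so nothing is read from this difference. All 9 had their midpoint downstream of the start (lower bound of the interval 70.1%), at a median of 327.5 bp and from 164.5 to 1379.5 bp. Of the other peaks near a start, 428 of 748 (57.2%, 53.6 to 60.7) had a downstream midpoint. No Skint peak lay within 1 kb of the far end of its gene. The share of the other peaks at a far end was not counted, so nothing is read from this. The intervals cover counting error only, and neighbouring peaks of 1 gene are not independent. Only 17492 protein-coding genes have a promoter entry, so some starts are missing for the other peaks.

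Other dense groups of control H3K27ac peaks, chosen after their values were seen, are set beside these values. Of the 19 peaks assigned to Gata3, a transcription factor gene of epidermal differentiation, 0 lay within 1 kb of a transcription start, which allows up to 16.8% by the same interval. Of the 13 peaks assigned to the Clec2 lectin-like genes 1 did. The difference from the Skint genes was not tested, since peaks of a gene share their libraries and their locus.

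The widths of the Skint peaks ranged from 201 to 1292 bp with a median of 336 bp, and the other placed peaks had a median of 273 bp and a range of 199 to 1798 bp. Of the 18 Skint peaks, 6 were wider than 485.1 bp, the 90th percentile of the list: the 3 of Skint1 and 1 each of Skint3, Skint4 and Skint7. The 13 Clec2 peaks were of like width, with a median of 369 bp, a widest peak of 1798 bp and 4 (30.8%) above 485.1 bp. At Skint4 the narrow peaks, of 201, 210 and 220 bp, were close to the narrowest in the list. Width depends on depth and on how the caller splits a region, and neither can be read from the lists.

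**Figure D3:**
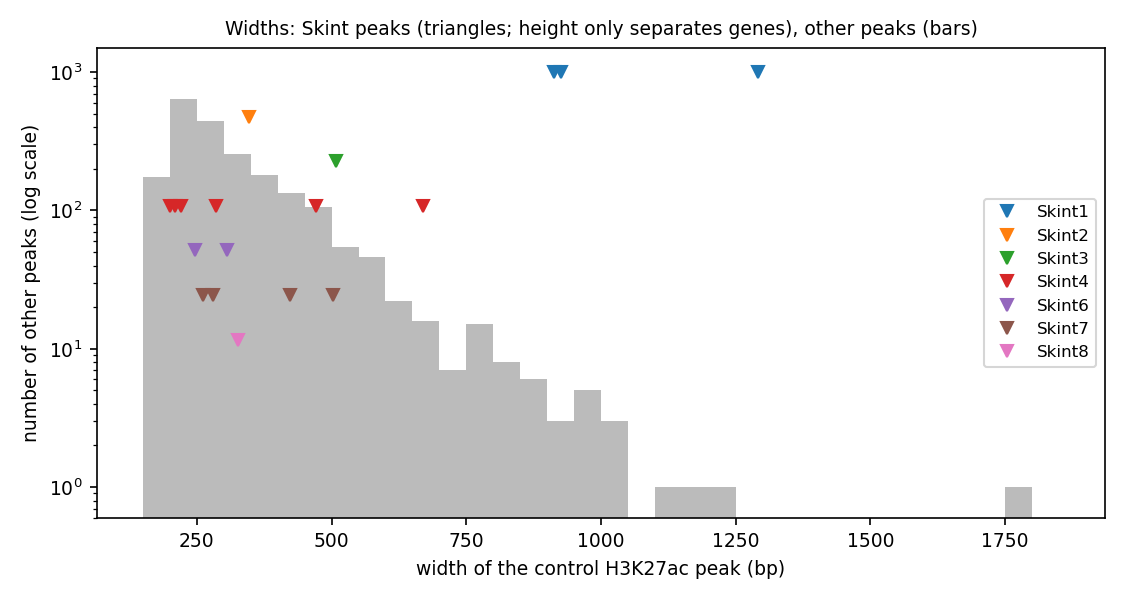
Widths of control H3K27ac peaks in bp. Grey bars count the 2121 other placed peaks in 50 bp bins on a log axis, and triangles mark the 18 Skint peaks by gene, their height serving only to separate genes. The Skint1 peaks, at 912, 926 and 1292 bp, stand to the right of all other Skint peaks.

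The promoters fell into sets by sequence, and close sequence did not always go with the same peaks. In the best local alignment the Skint5 and Skint6 promoters had 269 of 300 bases in common (89.7%), and Skint2 shared 190 bases with Skint6. The promoter at the downstream start of Skint4 shared 194 bases with that of Skint3. Skint8 and Skint7 shared 112 bases over a 132-column alignment, at places 178 bp apart relative to their starts. Skint10 shared 210 bases with Skint11 and 138 with Skint9. The upstream Skint4 promoter, where the peaks lay, shared at most 17 bases with any other family promoter in this alignment. Of its bases, 49 lie in 20-base stretches also found in promoters of 6 of 17481 genes outside the family. At Skint9 this held for 40 bases and 1 gene, and no other family promoter shared such a stretch.

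The closest pair differed in its peaks. Skint6 had 2 peaks within 3 kb of its start, though none within 1 kb, and Skint5 had none. Their promoters are shown on the minus strand, with the 31 bases at which they differ in capitals.
Skint6, chr4:113286924-113287223: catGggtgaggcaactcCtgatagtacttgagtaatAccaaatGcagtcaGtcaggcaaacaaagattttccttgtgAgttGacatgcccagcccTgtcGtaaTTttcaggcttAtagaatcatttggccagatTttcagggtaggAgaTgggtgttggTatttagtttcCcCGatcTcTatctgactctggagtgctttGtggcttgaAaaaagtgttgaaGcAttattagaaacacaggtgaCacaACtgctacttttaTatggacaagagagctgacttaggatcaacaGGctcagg
Skint5, chr4:113999454-113999753: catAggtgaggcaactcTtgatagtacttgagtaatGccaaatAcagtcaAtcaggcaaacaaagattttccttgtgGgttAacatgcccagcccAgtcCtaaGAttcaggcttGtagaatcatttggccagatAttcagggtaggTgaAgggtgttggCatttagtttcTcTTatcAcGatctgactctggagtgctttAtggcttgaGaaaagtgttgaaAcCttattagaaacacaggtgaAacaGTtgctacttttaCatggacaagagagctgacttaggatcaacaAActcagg
How reads that match several places, in the family or outside it, were treated is not given in the sources used here. The part of such reads in the presence or absence of a peak at genes with like or shared promoter sequence was not tested.

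**Figure D4:**
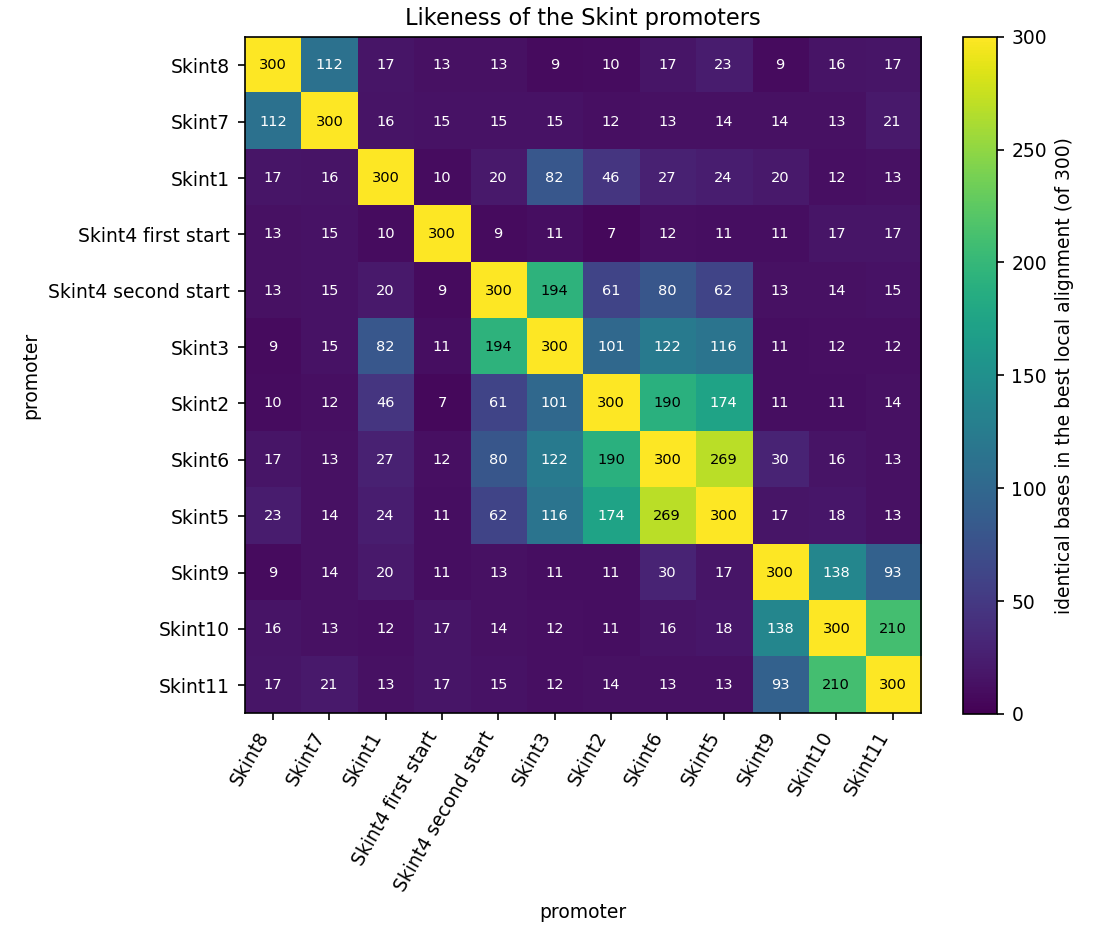
Number of identical bases in the best local alignment of each pair of 300-base promoters of the Skint family, with Skint4 at both of its starts. Skint5 and Skint6 share 269 bases, Skint10 and Skint11 210, Skint3 and the downstream start of Skint4 194, and the upstream start of Skint4 at most 17 with any other.

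The word held by most member promoters, among words of 12 or more letters, was 14 bases long. It was found on the coding strand in the promoters of Skint1, Skint3, Skint5, Skint6 and the downstream start of Skint4. Of 21251 promoter entries of genes outside the family, 0 held it on either strand. The word was chosen from these same Skint promoters, so nothing is read from that 0. It is shown in capitals with up to 20 bases on either side, since it marks sequence that 5 members share at 47 to 231 bases before their starts.
Skint1, chr4:112006019-112006071, plus strand: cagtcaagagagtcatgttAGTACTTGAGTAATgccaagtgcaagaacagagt
Skint3, chr4:112232122-112232175, plus strand: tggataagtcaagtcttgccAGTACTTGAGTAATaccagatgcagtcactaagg
Skint4, downstream start, chr4:112081403-112081456, plus strand: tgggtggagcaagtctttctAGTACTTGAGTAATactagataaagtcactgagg
Skint5, chr4:113999698-113999751, minus strand: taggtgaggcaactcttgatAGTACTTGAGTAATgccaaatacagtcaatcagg
Skint6, chr4:113287168-113287221, minus strand: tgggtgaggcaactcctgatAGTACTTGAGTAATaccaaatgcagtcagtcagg
The word lay outside the peaks in all 5 promoters. Of the 5 genes, Skint5 had no peak, and no peak lay within 1 kb of the downstream start of Skint4.

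Motifs of factors that act in epidermis were searched on both strands of the 11 promoter windows of the 10 members. The AP-1 word TGANTCA was found in 0, and in 6.99% of 21263 promoter entries of protein-coding genes. The promoter of Skint11, outside the 10, held it as TGACTCA, beginning 15 bases before the start. The TFAP2 word GCCNNNGGC and the KLF word CCACACCC were also found in 0, and in 19.9% and 3.63% of all entries. At such shares a 0 among 11 windows gives nothing to read. Base composition was not matched between the Skint windows and all entries, and some Skint windows are alike in sequence. The GRHL word AACNGGTT was found in Skint8 alone (1.95% of all entries) and the GATA word AGATAA at the downstream start of Skint4 alone (9.65%). The TATA word TATAAA, on either strand and at any place in the window, was found in 7 of 11 (12.6% of all entries) and also in Skint11. Its place differed: it began 40 bases before the start in Skint1, 31 in Skint7 and 18 in Skint2. In Skint8, Skint9 and at the downstream start of Skint4 it began 130 to 209 bases before the start, and in Skint6 after it. Only in Skint1 did it read TATAAA on the coding strand. These letters were looked for only in the printed kind of window, and not in the peaks further into the genes.

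After Utx deletion 0 of the 48 H3K27ac peaks were assigned to a Skint gene, and 0.123% of protein-coding genes had a peak in that list. Over the whole genome the control list was 44.6 times as long. At the control share of Skint peaks, 0.841%, which is high because the genes were selected on it, a list of 48 peaks would hold 0.404, and a count of 0 of 48 allows a share of up to 6.25%. A change of H3K27ac at the Skint genes beyond that of the whole list was thus not detectable from these lists. The nearest Utx-deleted H3K27ac peak lay 32.1 Mb from any Skint peak.

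The UTX antibody also gave no peak at the Skint genes. In control epidermis 0 of 547 peaks were assigned to them, which allows a share of up to 0.548%, and 2.43% of protein-coding genes had a control UTX peak. The nearest control UTX peak, of the Wnt inhibitor gene Trabd2b (chr4:114552930-114553278), lay 307902 bp beyond the end of Skint11 and 1.26 Mb from the nearest of the 18 Skint peaks, and 0 of the 18 overlapped a UTX peak. In Utx-deleted epidermis 0 of 213 UTX-antibody peaks were assigned to a Skint gene (up to 1.41%), and 0.512% of all genes had 1. No list of either genotype thus held a UTX-antibody peak at these genes. At those shares of all genes, a 0 among so few genes gives nothing to read. Binding too weak to be called as a peak cannot be seen in the lists.

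Relatives and partners of the Skint proteins were looked at in the same way. Of 10 butyrophilin family genes, among them Btn1a1, Btnl2 and Mog, 0 had a peak in any of the 4 lists. With 5.97% of all genes holding a control H3K27ac peak, and fewer holding a peak of the other lists, so short a list of genes gives nothing to read from a 0. Of 19 listed genes for keratinocyte ligands and signals to dendritic epidermal T cells, 15 matched the annotation and 3 had a control H3K27ac peak, beside 5.97% of all genes. Cdh1, which encodes E-cadherin, an adhesion partner of these T cells through the integrin CD103, had 14 peaks covering 5496 bp. H60c, a keratinocyte ligand of the receptor NKG2D, had 2, the nearest 44303 bp from the gene, and Ahr, the aryl hydrocarbon receptor gene, had 1 at 135787 bp. Raet1d, of another family of NKG2D ligands, had 1 control UTX peak, 48902 bp away. Of this list 0 had a Utx-deleted peak of either antibody, where 0.123% (H3K27ac) and 0.512% (UTX antibody) of all genes had 1.

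Genes with the most like pattern to Skint4 were those with 6 control H3K27ac peaks and 0 in the other lists. Outside the family 19 genes had these numbers, and by covered length the nearest were Cd69 (2051 bp), Sik1 (2083 bp), Nsf (2023 bp), Ahnak (1991 bp) and Dennd2c (2147 bp). Within 1 kb of a gene end were 0 of the 6 peaks at each of Cd69, Nsf and Ahnak, 2 at Sik1 and 1 at Dennd2c. At Skint4 itself the peaks of 472 and 220 bp lay that close, and its others did not. The nearest Cd69 peak lay 29787 bp from that gene, whereas the 6 Skint4 peaks lay in or touched Skint4. The likeness is in numbers of peaks and covered length over 4 merged lists only.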

How the data were processed

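The authors deposited 4 peak lists with chromosome, start and end. Per the file headers, MACS2 called narrow peaks after merging the samples within each group. FastQC, Bowtie2, deepTools and bedtools appear without versions per the submitters' processing notes. These name both mm10/GRCm38 and mm39/GRCm39. As deposited, 36.1% of control H3K27ac peaks had a GRCm38 gene end at 1 kb or less, against 10.0% and 9.67% after moving all peaks by 10 kb to either side, so GRCm38 was used. Starts were turned to 1-based positions. Peaks were assigned to 21887 RefSeq protein-coding genes (GRCm38.p6): to the gene they overlap, otherwise to the nearest. Unplaced peaks (1 control H3K27ac, 5 Utx-deleted UTX) got no gene. Neighbouring peaks were joined into stretches at gaps of up to 1 kb, 3000 bp or 12500 bp. Promoter sequences are from RefSeq. Local alignments scored 2 for a match, -3 for a mismatch, and -5 and -2 for opening and extending a gap. The limit of a count of 0 is 3 counts, and limits and intervals cover counting error only. The members and gene lists were chosen with earlier results of these data known. Named genes are the family, its neighbours, listed genes with a peak, and the 5 most like Skint4, plus genes of the longest stretches, Gata3 and Clec2 genes, chosen after their values were seen. The assignment was checked on simulated peaks. Biopython 1.88, matplotlib 3.10.9, scipy 1.17.1, pandas 2.3.3 and numpy 2.4.6 were run under Python 3.11.15.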

Additional observations from a re-analysis of the deposited data

How the results depend on the processing

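Of 40 alternative values over 9 results, 38 stayed within 1.5 times the reported value, 17 of them counts of 0. Settings that only drop peaks could not raise a 0, and joining peaks could hardly do so. Overlap was counted among UTX peaks at Skint genes, of which there were 0. Most of these counts of 0 therefore say nothing about stability. With peaks within 1 kb of each other merged, the control H3K27ac peaks of the members came to 11 in place of 18, and their median width to 509 bp in place of 336 bp, both by construction. In each setting tried with the 10 members, 7 had a control H3K27ac peak, and with Skint11 it was 8 of 11. Counting only distance to a transcription start was chosen after seeing the data. The lists hold no q-value and no single libraries, so neither a stricter q nor leaving out a library was run, and depth behind the peaks is unknown. No paired analysis was possible because the lists were made from merged libraries.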
